A study of Homo sapiens with 4 samples.

Results

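Chromatin loops of 35 to under 250 kb that start and end inside the same protein-coding gene were described in GM12878, a lymphoblastoid line, that is, human B cells immortalised with Epstein-Barr virus. A loop is a pair of 5 kb bins of the genome, called anchors, that were ligated to each other more often than a background model expects. A loop was taken when its span, from the first base of one anchor to the first base of the other, was at least 35 kb and under 250 kb, and both anchors overlapped the body of 1 common protein-coding gene in the RefSeq table. Of 41846 loops listed in any library, 30672 had such a span and 5629 of these had both anchors on 1 common gene, here called inside a gene. Both anchors lay wholly within the gene body for 3742 of the 5629, and for the rest an anchor reached past its edge. The contacts were measured by HiChIP of SMC1, which joins neighbouring DNA ends in cross-linked nuclei and then precipitates the fragments bound by the cohesin subunit SMC1.

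There were 4 libraries, 1 per group, all from the same line. APH cells were treated with 0.4 µM aphidicolin, an inhibitor of replicative DNA polymerases, for 18 h, and DMSO cells with its solvent. HU cells were treated with 0.2 mM hydroxyurea, an inhibitor of ribonucleotide reductase, for 18 h, and H2O cells with its solvent. With 1 library per group no test between conditions was possible. Every ratio compares libraries, and every interval (95%, exact) covers counting error only. The 2 solvent libraries, compared as H2O over DMSO, give the size of difference that was seen without either drug. Since each solvent library also serves a drug comparison, the 3 comparisons share libraries. Contacts over the 9529 loops listed in all 4 libraries summed to 376948 in APH, 300320 in DMSO, 322048 in HU and 325634 in H2O, and ratios are scaled by these totals. Of 12 B cell marker genes, between 10 and 11 had a loop of any span on their body in each library, and 5 of the 6 that are long enough held a loop inside the gene (CIITA, IKZF3, EBF1, BLK and PAX5). None of the 4 T cell marker genes that are long enough did, although 4 to 6 of 9 T cell markers had a loop of any span on their body. Of 2 long enough myeloid markers, ITGAM held a loop inside the gene, and no erythroid marker was long enough. A loop of any span lay on 2 of 7 myeloid markers in APH, 1 in DMSO, 4 in HU and 0 in H2O. Such a loop lay on 1 of 3 erythroid markers in each library.

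Cohesin is a ring-shaped complex that holds chromatin loops and is thought to enlarge them by extrusion until it meets a barrier, most often the DNA-binding protein CTCF. A loop inside a gene can join a promoter to an enhancer in an intron, can join alternative promoters or internal elements, or can bring the start of a gene close to its end. Cohesin is also known to be moved along genes by transcribing RNA polymerase.

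The start of the host gene was a frequent anchor of these loops, so the promoters at 4 such anchors are shown, each as the 250 bases before the start, read 5′ to 3′ from RefSeq promoter sequences of the build GRCh38.p14, which is the build of hg38. FMNL3, a formin that assembles actin filaments, held the single loop with the most contacts. MOB3B, a member of the MOB family of kinase activators, held the anchor shared by the most loops. The anchor at the start of ABTB2, an ankyrin-repeat and BTB-domain protein, lay in the second loop by contacts. CHD9, a chromatin remodeller of the CHD family, is shown because its promoter held a match to the CTCF core, printed in capitals. The MOB3B stretch runs across the edge of its anchor, whose last base is 27530000.
FMNL3 (chr12:49707406-49707655, minus strand): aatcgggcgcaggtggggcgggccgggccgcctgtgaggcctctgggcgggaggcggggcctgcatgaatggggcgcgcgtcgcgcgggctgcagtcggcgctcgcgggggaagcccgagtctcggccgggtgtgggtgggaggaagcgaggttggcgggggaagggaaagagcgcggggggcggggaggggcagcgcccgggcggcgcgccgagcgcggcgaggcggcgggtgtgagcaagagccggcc
MOB3B (chr9:27529815-27530064, minus strand): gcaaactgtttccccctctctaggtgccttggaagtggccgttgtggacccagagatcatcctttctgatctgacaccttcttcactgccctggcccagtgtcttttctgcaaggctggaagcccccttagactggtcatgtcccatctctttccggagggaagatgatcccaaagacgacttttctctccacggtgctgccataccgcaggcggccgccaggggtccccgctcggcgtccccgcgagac
ABTB2 (chr11:34358011-34358260, minus strand): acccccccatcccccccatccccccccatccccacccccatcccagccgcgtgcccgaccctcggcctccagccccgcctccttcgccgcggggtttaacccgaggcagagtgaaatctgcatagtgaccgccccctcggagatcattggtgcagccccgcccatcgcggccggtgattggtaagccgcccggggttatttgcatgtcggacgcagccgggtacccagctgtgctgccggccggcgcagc
CHD9 (chr16:53054741-53054990, plus strand): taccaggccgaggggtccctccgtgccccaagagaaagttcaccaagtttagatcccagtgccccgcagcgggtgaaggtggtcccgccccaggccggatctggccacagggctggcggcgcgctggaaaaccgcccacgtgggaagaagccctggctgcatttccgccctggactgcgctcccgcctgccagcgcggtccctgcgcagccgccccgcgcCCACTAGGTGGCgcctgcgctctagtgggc

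The base composition of these 4 stretches was 79.2% G and C for FMNL3, 59.2% for MOB3B, 70.4% for ABTB2 and 70.4% for CHD9. The motifs searched, on both strands, were the CTCF core, spelled CCA, AG and GGC with 2 bases of any kind between each, AANATGGC for YY1 and CCGGAAGT for ETS factors. Over windows of 300 bases, the CTCF letters were found in 3.59% (2.56 to 4.87) of the 1087 promoters that lie in an anchor of a loop inside their own gene, against 1.88% (1.23 to 2.74) of the 1382 other promoters of the same set of genes and 2.52% of all 22132 promoters. The YY1 letters were found in 7.91%, 5.50% and 7.37% of these 3 sets. The ETS letters were found in 3.40%, 2.10% and 5.35%. The median G and C content was 66.7% at anchors, 57.0% at the other promoters of these genes and 62.3% over all promoters. A match is a description of the letters only.

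The number of loops inside genes followed the length of each list. The APH library listed 3570 and DMSO 2024, and HU listed 2771 and H2O 2821, while the lists of all spans held 27395, 17660, 21448 and 22446 loops in the same order of libraries. As a share of all listed loops of 35 to under 250 kb, loops inside 1 gene made up 17.1% (16.6 to 17.6) in APH, against 15.5% (14.8 to 16.1) in DMSO. They made up 17.1% (16.6 to 17.7) in HU, against 17.1% (16.5 to 17.7) in H2O. The share in APH exceeded that in DMSO by 1.61 percentage points, and the share in H2O exceeded that in DMSO by 1.62 points, and against H2O in place of DMSO the difference for APH was -0.0079 points. DMSO had the lowest share over all spans, but not in every class of span: from 35 to under 60 kb it was lowest in HU, at 24.6%, against 27.1% in H2O, and DMSO had 25.2%. Among loops with at least 24 contacts the difference between APH and DMSO was 0.92 points (-0.42 to 2.26).

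**Figure D1:**
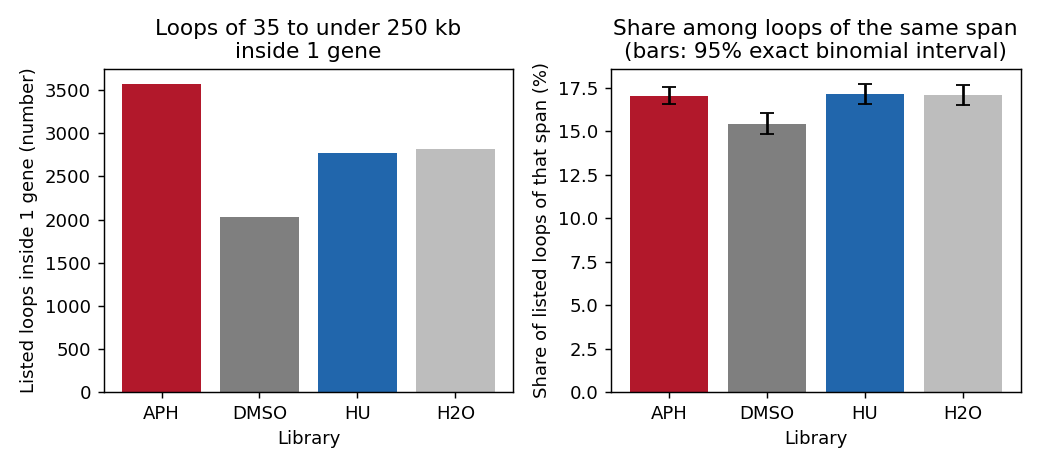
Loops of 35 to under 250 kb inside 1 gene, as a number (left) and as a share of all listed loops of that span (right, in percent, with 95% exact binomial intervals) in the 4 libraries. The numbers run between 2024 in DMSO and 3570 in APH, while the shares of APH, HU and H2O are all 17.1% and that of DMSO is 15.5%.

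The loops had a median span of 75 kb in APH, 75 kb in DMSO, 75 kb in HU and 80 kb in H2O, against 100, 105, 100 and 105 kb for the other listed loops of 35 to under 250 kb. Their median contact count was 20 in APH, 20 in DMSO, 19 in HU and 20 in H2O, and the highest was 274 in APH. The contacts expected by the caller's background were higher for these loops, with medians of 4.74 in APH, 4.39 in DMSO, 4.28 in HU and 4.73 in H2O, against 3.93, 3.49, 3.73 and 3.71 for the other loops. The median ratio of observed to expected contacts was accordingly lower, at 4.18 in APH, 4.43 in DMSO, 4.50 in HU and 4.13 in H2O, against 5.14, 5.70, 5.37 and 5.31. At the short edge of the span range, 396 loops inside a gene spanned 35 kb and entered, and 410 spanned 30 kb and did not. At the long edge, 10 spanned 245 kb and entered, and 14 spanned 250 kb and did not.

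Loops inside genes were listed in all 4 libraries less often than other loops of 35 to under 250 kb. Of the 5629, 1022 (18.2%, 17.2 to 19.2) were listed in all 4, against 25.5% (25.0 to 26.1) of the other loops. The difference was present in the 3 shorter classes of span, at 14.1% against 20.5% for 35 to under 60 kb, 17.0% against 24.8% for 60 to under 100 kb and 21.6% against 27.6% for 100 to under 150 kb. From 150 to under 250 kb the shares were 27.0% (23.7 to 30.5) and 28.1% (27.0 to 29.3), with overlapping intervals. Loops that joined 2 different genes were listed in all 4 libraries in 25.9% of cases, those with 1 anchor on a gene in 26.0% and those with none in 24.1%. The lists hold only bin pairs with at least 12 contacts, and an unlisted pair is not a 0. With a shift of 1 bin allowed at each anchor, 41.8% of the loops inside genes had a partner in all 4 libraries, against 53.5% of the others. Of the loops seen in 1 library only, 1154 were in APH, 289 in DMSO, 646 in HU and 718 in H2O, and 373 were in APH and HU only, against 114 in DMSO and H2O only. Other loops of that span were split alike, with 5.91% in APH and HU only and 1.76% in DMSO and H2O only, against 6.63% and 2.03% of the loops inside genes. Listed in 1 library only were 18.3% (APH), 4.96% (DMSO), 9.02% (HU) and 10.4% (H2O) of the other loops. For the loops inside genes these shares were 20.5%, 5.13%, 11.5% and 12.8%. Neighbouring bin pairs can be the same contact: 3930 of the 5629 loops had another within 1 bin at both anchors, so loops are not independent.

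Of 19974 protein-coding genes, 8406 were long enough to hold such a loop and 1485 (17.7%) held at least 1. Just 1 loop was found in 472 genes, at least 5 in 372 and at least 10 in 127. The share of genes with a loop was 3.45% under 50 kb, 12.1% from 50 to under 100 kb, 27.1% from 100 to under 200 kb, 37.1% from 200 to under 500 kb and 40.8% at 500 kb or more. Per 100 kb of gene the loops peaked at 0.728 in genes of 100 to under 200 kb and stood at 0.260 in genes of 500 kb or more. Genes on the X chromosome held few, with a loop in 8.06% of them and 0.119 loops per 100 kb, against 0.879 per 100 kb on chromosome 17. Loops inside a gene made up 30.5% of all loops of that span on chromosome 18 and 8.10% on chromosome 19.

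The start of the host gene was an anchor more often than bin pairs of the same gene and span would have it. A start was given in the promoter sequences for 1259 of the 1485 genes, which held 4852 of the loops. Of these loops, 1751 (36.1%, 34.7 to 37.5) had an anchor at a start of the host gene, against 13.1% of all bin pairs of the same gene and the same span. With 1 bin of tolerance the shares were 51.9% and 26.6%. The end of the gene showed the opposite, with an anchor there for 5.34% of the loops against 9.96% of bin pairs of the same gene and span. Loops that joined the start to the end numbered 101 (2.08%), and 60.7% of loops touched neither. The share at a start was 37.7% in APH, 37.8% in DMSO, 37.9% in HU and 37.5% in H2O, with overlapping intervals. Among loops listed in all 4 libraries it was 39.7% (36.5 to 43.0), and among loops listed in 1 library it was 33.2% (31.3 to 35.1).

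**Figure D2:**
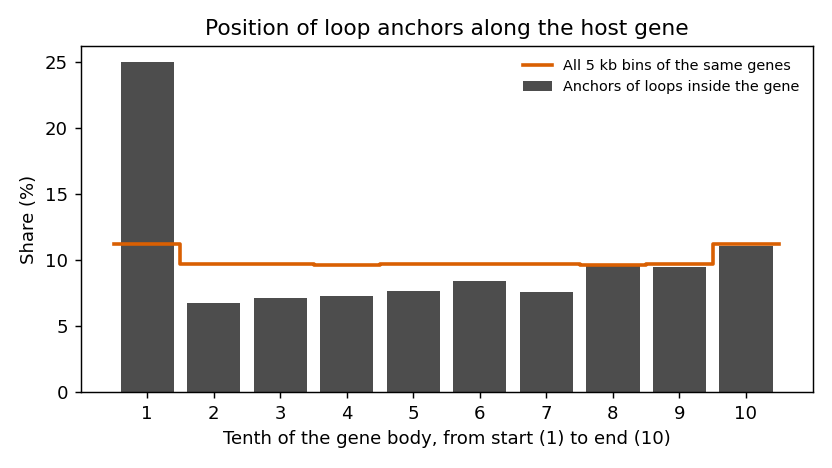
Share of the anchors of loops inside a gene (bars, in percent) in each of 10 equal parts of the host gene, from start to end. The line is the share of all 5 kb bins of the same genes, with each gene weighted by its number of loops. The first part holds 24.9% of anchors and 11.2% of weighted bins, the next 6.78% and 9.70%, and the last 11.05% and 11.2%.

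At least 1 anchor held a start of any protein-coding gene in 32.9% (31.7 to 34.1) of loops inside 1 gene, against 41.9% (40.7 to 43.0) of loops between different genes and 20.4% where only 1 anchor lay on a gene. Both anchors held a start in 1.33% of loops inside 1 gene and in 7.57% of loops between different genes. A start of a gene other than the host lay in an anchor of 5.31% of loops inside 1 gene. Loops with an anchor at a start were listed in all 4 libraries in 20.05% (18.2 to 22.0) of cases, against 17.2% (15.9 to 18.6) for those without. The intervals of the 2 shares overlap, which does not show that the shares are equal. Between loops listed in all 4 libraries and those listed in 1, the intervals of the share at a start given above did not overlap. All these intervals treat loops as independent, which they are not. The share of bin pairs of the same gene and span with an anchor at a start also differed. It was 14.1% for loops listed in all 4 libraries and 13.1% for loops listed in any.

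Many loops of a gene often shared an anchor. Of 6696 anchors, 4360 were used by 1 loop and 515 by at least 4. The start of MOB3B (chr9:27525001-27530000) was used by 21 of the gene's 22 loops. In ABTB2 the anchor used most lay towards the other end of the gene (chr11:34170001-34175000, 15 loops). Anchors used by 14 loops each were found in SAMD4A, ARHGAP22 and PALM2AKAP2.

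The gene with the most loops was PALM2AKAP2, whose product includes an anchor protein for protein kinase A, with 41 loops in 532 kb. It had 25 loops in APH against 17 in DMSO, and 20 in HU against 30 in H2O, and none had an anchor at a listed start. RAPGEF1, an exchange factor that activates the small GTPase Rap1, followed with 30 loops in 163 kb, 19 of them with an anchor at a start. ABTB2 had 27 loops, with 24 in APH against 6 in DMSO and 12 in HU against 10 in H2O. CHD9 and ENTPD1 had 25 each. ENTPD1 is the ectonucleotidase CD39 of B cells and other leukocytes. PITPNC1, a phosphatidylinositol transfer protein, had 24. FRMD4A, AUTS2 and TRAK1, the last an adaptor that links mitochondria to kinesin motors, had 23 each.

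In CHD9 the loops fanned out from the first bins of the gene. The library totals were 20 loops in APH against 14 in DMSO and 17 in HU against 18 in H2O, and 12 were listed in all 4. The bin that holds the start printed above was an anchor of 8 loops. The loop from the bin around 7.51 kb to that around 42.5 kb had 47 contacts in APH against 51 in DMSO, and 53 in HU against 41 in H2O. The far anchors fell at a few places, with a group around 153 kb that was joined to the start region in every library. The 12 shared loops together had 329 contacts in APH against 333 in DMSO, a log2 ratio of -0.35 (-0.57 to -0.12). They had 331 in HU against 364 in H2O, a log2 ratio of -0.12 (-0.34 to 0.10).

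**Figure D3:**
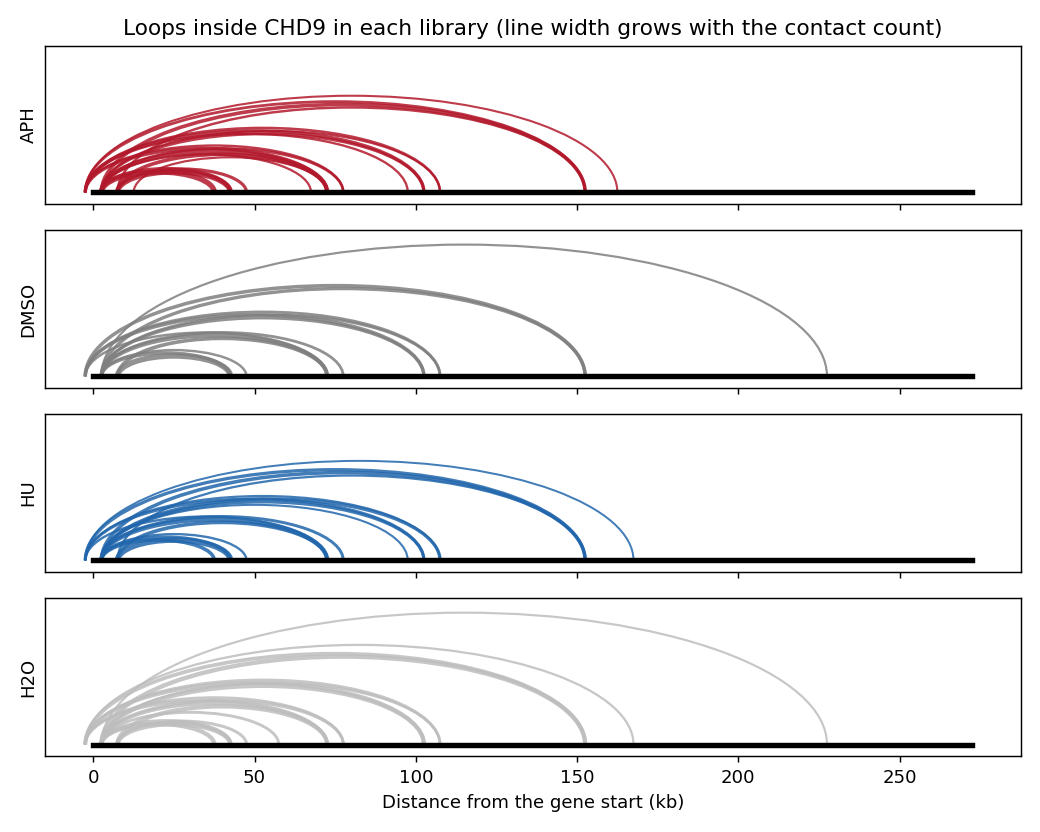
Loops inside CHD9 in the 4 libraries, drawn as arcs between the centres of their anchors against the distance from the gene start in kb, with the gene as a black bar and line width growing with the contact count. APH shows 20 loops, DMSO 14, HU 17 and H2O 18, and nearly all leave from the first bins of the gene.

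The 3 loops with the most contacts were those of FMNL3, ABTB2 and FRMD4A. The FMNL3 loop, of 65 kb from the start towards the end of the gene (chr12:49640001-49710000), had 274 contacts in APH against 206 in DMSO, and 180 in HU against 234 in H2O. The ABTB2 loop of 185 kb had 193 in APH against 184 in DMSO, and 149 in HU against 164 in H2O. The FRMD4A loop of 115 kb had 161 in APH against 144 in DMSO, and 120 in HU against 144 in H2O. These are raw contacts, and the APH library had the highest total.

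Summed over the loops listed in all 4 libraries, 9 of the 10 genes with the most contacts lay within 1.5-fold of the solvent library in both drug comparisons. PALM2AKAP2 had 582 contacts in APH against 468 in DMSO (log2 ratio -0.01, -0.19 to 0.17), and 485 in HU against 515 in H2O (-0.07, -0.25 to 0.11). FMNL3 had 563 in APH against 465 in DMSO (-0.05, -0.23 to 0.13), and 409 in HU against 510 in H2O (-0.30, -0.49 to -0.11). LDLRAD4, a negative regulator of TGF-beta signalling, had 456 in APH against 407 in DMSO, and 365 in HU against 387 in H2O. LMNA, which encodes the nuclear lamins A and C, had 380 in APH against 291 in DMSO, and 260 in HU against 309 in H2O. The kinase MAP3K5 had 318 in APH against 286 in DMSO, and 241 in HU against 297 in H2O. For PDZRN3, KALRN and ENTPD1 all 3 intervals included 0. VMP1, a membrane protein needed for autophagy, had 291 in APH against 267 in DMSO (-0.20, -0.45 to 0.04) and 212 in HU against 322 in H2O (-0.59, -0.84 to -0.33), just past 1.5-fold. With DMSO in place of H2O it was within 1.5-fold as well, at -0.43 (-0.70 to -0.17).

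Pooled over the 1022 loops listed in all 4 libraries, the interval of the difference between contacts inside genes and other loops of 35 to under 250 kb included 0 in all 3 comparisons. They summed to 39477 in APH against 31123 in DMSO, a log2 ratio of 0.02 (-0.01 to 0.04), and the difference from the other 6395 loops was -0.001 (-0.02 to 0.02). They summed to 33766 in HU against 34187 in H2O, a log2 ratio of -0.002 (-0.02 to 0.02), and the difference from the other loops was -0.01 (-0.03 to 0.01). For H2O over DMSO the log2 ratio was 0.02 (-0.003 to 0.04), with a difference of 0.02 (-0.001 to 0.05). These pools were not matched for span within that range, and the loops inside genes were shorter. As a mean over span classes, the difference was -0.0213 for APH over DMSO, -0.0348 for HU over H2O and 0.0229 for H2O over DMSO. No interval was computed for these means. Other settings gave differences whose intervals left out 0: divided by expected contacts it was 0.0388 (0.0157 to 0.0619) for APH over DMSO and 0.0941 (0.0707 to 0.117) for HU over H2O, and for APH over H2O it was -0.0235 (-0.0460 to -0.00104). Without either drug, the difference for H2O over DMSO was 0.0272 (0.00568 to 0.0487) over loops listed in both libraries. With both anchors wholly inside the gene it was 0.0361 (0.00634 to 0.0659) for H2O over DMSO.

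Within the loops inside genes, the ratio of drug to solvent was lower for loops of at least 100 kb than for shorter ones. For APH over DMSO the pooled log2 ratio was 0.10 from 35 to under 60 kb, 0.03 from 60 to under 100 kb, -0.04 from 100 to under 150 kb and -0.10 from 150 to under 250 kb. For HU over H2O it was 0.08, -0.04, -0.02 and -0.07 in the same classes, and for H2O over DMSO it was 0.01, 0.04, -0.01 and 0.02. Loops of at least 100 kb stood below shorter ones by a log2 difference of -0.13 (-0.17 to -0.08) for APH over DMSO and -0.06 (-0.10 to -0.01) for HU over H2O, against -0.03 (-0.08 to 0.02) for H2O over DMSO. For the other loops the ratio was also lower in each longer class, at 0.09, 0.07, 0.01 and -0.09 for APH over DMSO and 0.13, 0.04, -0.03 and -0.09 for HU over H2O. The loops inside genes stood below the others of the same span in HU over H2O by -0.05 (-0.09 to -0.003) from 35 to under 60 kb and by -0.08 (-0.12 to -0.04) from 60 to under 100 kb. With DMSO in place of H2O these differences were -0.02 (-0.07 to 0.02) and -0.04 (-0.08 to 0.01), with intervals that include 0. Loops with an anchor at a start differed from those without by -0.01 for APH over DMSO, 0.04 for HU over H2O and -0.05 for H2O over DMSO, each with an interval that includes 0.

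**Figure D4:**
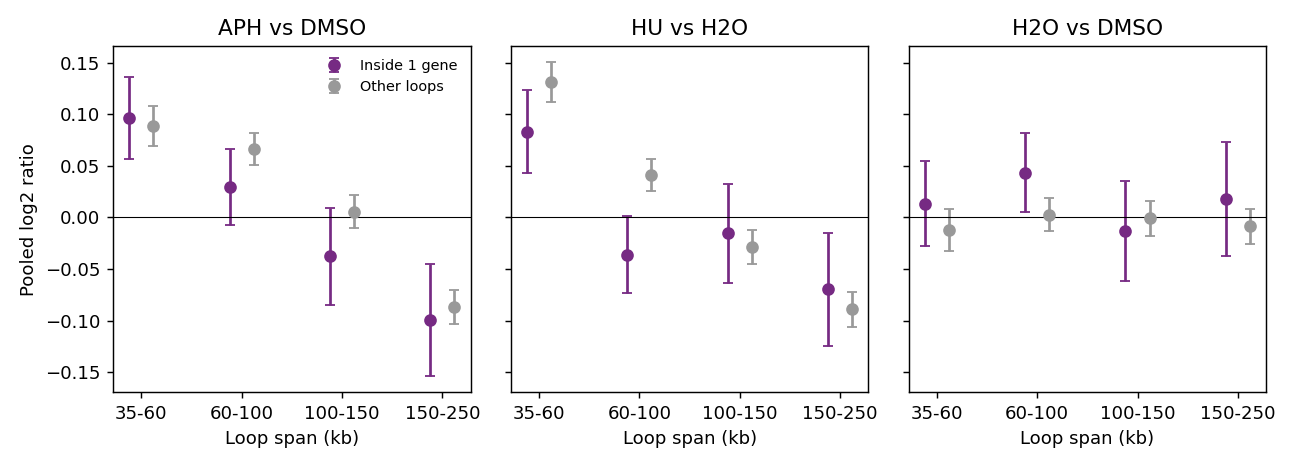
Pooled log2 ratio of contacts (vertical axis, with 95% exact intervals of counting error) by class of loop span in kb, for loops inside 1 gene and for the other loops of that span, in 3 library comparisons. Loops inside 1 gene run between 0.10 and -0.10 in APH over DMSO and between 0.08 and -0.07 in HU over H2O, and lie between -0.01 and 0.04 in H2O over DMSO.

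Single loops were called different when the interval of their ratio left out 1. In APH over DMSO, 32 of the 1022 loops inside genes were called higher (3.13%, against 2.76% of all 9529 loops) and 18 lower (1.76%, against 2.74%). In HU over H2O, 37 were called higher (3.62%, against 3.92%) and 37 lower (3.62%, against 3.45%). In H2O over DMSO, 18 were called higher (1.76%, against 1.26%) and 8 lower (0.783%, against 1.36%). The share called lower was below that of all loops in APH over DMSO and in H2O over DMSO, and the share called higher was above it in the same comparisons. The highest in APH over DMSO were a 55 kb loop in THSD4, an extracellular matrix protein, with 58 contacts in APH against 19 in DMSO, and a 45 kb loop in XPO7, a nuclear transport receptor, with 73 in APH against 25 in DMSO. The lowest were a 165 kb loop in ZFHX3, a homeobox transcription factor, with 17 in APH against 31 in DMSO, and a 230 kb loop in RGL1, an exchange factor for Ral GTPases, with 17 in APH against 30 in DMSO. In HU over H2O the highest were in KLHL32, with 32 in HU against 12 in H2O, and CASQ2, with 45 in HU against 19 in H2O. The lowest were a 245 kb loop in PALM2AKAP2, with 15 in HU against 39 in H2O, and a 200 kb loop in RFX3, with 13 in HU against 32 in H2O. The ZFHX3 loop also stood apart between the solvent libraries, with 15 in H2O against 31 in DMSO, and so did the RFX3 loop, with 32 in H2O against 13 in DMSO.

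Summed per gene, a gene was called when its ratio was at least 1.5-fold, the interval left out 1 and the counts of both libraries summed to at least 50. Genes that share the same loops counted once. The share over genes by all their loops sums loops of any span with either anchor on the gene, so the shares below are not like for like. In APH over DMSO, 16 of 435 genes were called higher (3.68%, against 1.75% of genes by all their loops) and 7 lower (1.61%, against 1.46%). In HU over H2O, 25 of 435 were called higher (5.75%, against 4.1%) and 13 lower (2.99%, against 1.95%). In H2O over DMSO, 4 of 405 were called higher (0.988%, against 0.731%) and 5 lower (1.23%, against 0.945%). The higher ones were ELAPOR1, SLC35F3, CFLAR and BCAS1 and the lower ones NIBAN1, TLL2, ZFHX3, LIMD1 and HYAL4, named after their values were seen. The median log2 ratio over genes was 0.02 for APH over DMSO, 0.02 for HU over H2O and 0.01 for H2O over DMSO. The direction of these calls depends on the scaling. Scaled by all listed contacts, the loops listed in all 4 libraries shift as a whole by -0.38 for APH over DMSO, 0.05 for HU over H2O and -0.24 for H2O over DMSO. The calls were then 0 higher and 78 lower for APH over DMSO, 29 higher and 8 lower for HU over H2O, and 0 higher and 19 lower for H2O over DMSO.

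The genes called highest in APH over DMSO each rested on 1 loop. PSD3, an exchange factor for the GTPase ARF6, had 44 contacts in APH against 17 in DMSO, a log2 ratio of 1.04 (0.21 to 1.94). CASQ2, the calsequestrin of heart muscle, had 45 in APH against 18 in DMSO (0.99, 0.18 to 1.87). ARVCF, a catenin of the p120 family, had 38 in APH against 16 in DMSO (0.92, 0.04 to 1.86). FRS2, an adaptor of fibroblast growth factor receptors, had 47 in APH against 20 in DMSO (0.90, 0.12 to 1.74), but H2O, with 34, also lay above DMSO. The ubiquitin-conjugating enzyme UBE2R2 had 41 in APH against 18 in DMSO, and the extracellular matrix protein TNR had 65 in APH against 29 in DMSO.

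The genes called lowest in APH over DMSO had 1 or 2 shared loops each. SMG6, an endonuclease of nonsense-mediated decay, had 33 contacts in APH against 53 in DMSO (-1.01, -1.68 to -0.36), and 53 in H2O. SPTBN1, a beta spectrin of the membrane skeleton, had 20 in APH against 31 in DMSO (-0.96, -1.85 to -0.10). ZFHX3 had 31 in APH against 45 in DMSO (-0.87, -1.57 to -0.17), while H2O, with 28, was below DMSO as well. The Wnt co-receptor LRP5 had 25 in APH against 35 in DMSO, and H2O had 25. BCAT1, an enzyme of branched-chain amino acid breakdown, had 32 in APH against 43 in DMSO. GAB2, a signalling adaptor, had 33 in APH against 44 in DMSO. Set against H2O in place of DMSO, the calls of ARVCF, FRS2, UBE2R2, SPTBN1, ZFHX3, LRP5, BCAT1 and GAB2 were lost, and those of PSD3, CASQ2, TNR and SMG6 were not. Divided by the expected contacts, the calls of CASQ2 (0.49), ARVCF (0.71), UBE2R2 (0.77), TNR (0.43), SPTBN1 (-0.58), LRP5 (-0.74), BCAT1 (-0.43) and GAB2 (-0.58) were lost. Over the loops listed in both APH and DMSO, those of SPTBN1 and BCAT1 were lost, at -0.55 each.

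In HU over H2O the 6 highest genes also rested on 1 loop each. CASQ2 had 45 contacts in HU against 19 in H2O (1.26, 0.46 to 2.12). The tyrosine kinase ABL2 had 38 in HU against 17 in H2O (1.18, 0.32 to 2.09). ARVCF had 40 in HU against 19 in H2O (1.09, 0.27 to 1.96). PKIB, an inhibitor of protein kinase A, had 48 in HU against 23 in H2O (1.08, 0.33 to 1.86). WDR88 had 56 in HU against 28 in H2O, and NHS, the gene of Nance-Horan syndrome, had 64 in HU against 33 in H2O.

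The 6 lowest in HU over H2O had between 1 and 3 shared loops. RAPGEF1 had 24 contacts in HU against 45 in H2O (-0.89, -1.67 to -0.15), from 1 of its 30 loops. CFLAR, an inhibitor of caspase-8 activation, had 31 in HU against 58 in H2O (-0.89, -1.57 to -0.23). WWTR1, the transcriptional coactivator TAZ, had 27 in HU against 50 in H2O. MRTFA, a coactivator of serum response factor, had 55 in HU against 101 in H2O (-0.86, -1.36 to -0.37). SNX25, a sorting nexin, had 51 in HU against 93 in H2O, and RGL1 had 50 in HU against 89 in H2O. For CFLAR, WWTR1 and MRTFA the H2O library lay above DMSO, which had 34, 33 and 66 contacts. Set against DMSO in place of H2O, the calls of CFLAR, WWTR1, MRTFA and RGL1 were lost. Divided by the expected contacts, the calls of SNX25 (-0.07), RGL1 (-0.15), CASQ2 (0.38), ARVCF (0.55) and WDR88 (0.67) were lost. Over the loops listed in both HU and H2O, RAPGEF1 stood at -0.42 and was not called.

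**Figure D5:**
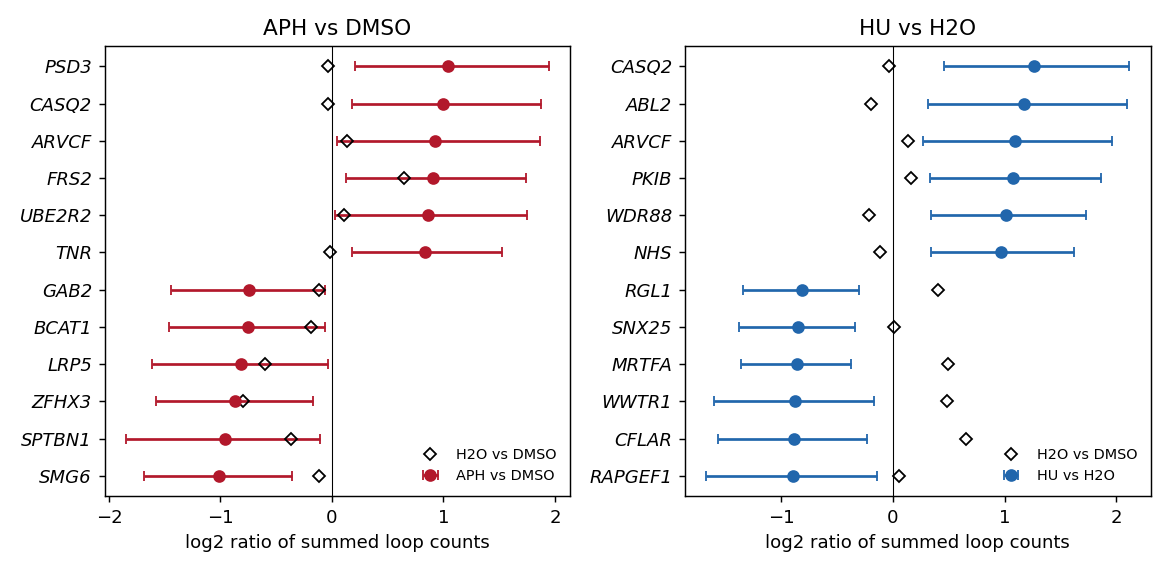
Log2 ratio of the summed contacts of loops inside the gene for the 6 highest and 6 lowest called genes in APH over DMSO (left) and HU over H2O (right), with 95% exact intervals of counting error, and the ratio of H2O over DMSO as open diamonds. PSD3 is the highest gene in APH over DMSO at 1.04 and SMG6 the lowest at -1.01, and in HU over H2O CASQ2 is the highest at 1.26 and RAPGEF1 the lowest at -0.89.

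Of 408 genes tested in both drug comparisons, 6 were called in both, each in the same direction. CAMTA1, CASQ2, THSD4, ARVCF and FGF1 were higher and RGL1 was lower. The same overlap for genes by all their loops was not computed, so it cannot be said whether 6 is many or few. FGF1, a fibroblast growth factor, had 161 contacts over 2 loops in APH against 78 in DMSO (0.72, 0.32 to 1.13), and 139 in HU against 77 in H2O (0.87, 0.46 to 1.29). CAMTA1, a calmodulin-binding transcription activator, had 207 over 3 loops in APH against 94 in DMSO (0.81, 0.45 to 1.18), and 151 in HU against 101 in H2O (0.60, 0.22 to 0.97). Both genes had close values in the 2 solvent libraries, at 77 in H2O against 78 in DMSO for FGF1 and 101 in H2O against 94 in DMSO for CAMTA1. These are the genes of the 6 with the most contacts. With the other solvent, THSD4 (0.57) and ARVCF (0.79) lost the call for APH, and CAMTA1 (0.58) and RGL1 (-0.41) lost it for HU, while FGF1 and CASQ2 kept both. Divided by the expected contacts, none of the 6 was called in APH over DMSO, where FGF1 stood at 0.38 (-0.02 to 0.79), CAMTA1 at 0.58 and THSD4 at 0.04. In HU over H2O THSD4 and FGF1 were still called under that setting. Scaled by all listed contacts, only RGL1 of the 6 was still called in APH over DMSO, at -1.10. FGF1 then stood at 0.34 (-0.06 to 0.75) and CAMTA1 at 0.43 (0.08 to 0.80). In HU over H2O all 6 stayed called under that scaling.

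The share of genes with such a loop was above that of genes of like length for several lists, among them B cell, lymphocyte signalling, muscle and cytoskeleton, and cohesin genes. For replication, fragile site and neuronal genes it stood below, but with intervals that include the expected share. The lists were made by gene function with earlier results known and overlap in part, so they are given as counts without a test, and the expected share is that of genes in the same classes of length. The longest class, 500 kb or more, has no upper limit. Median length was 1362 kb for fragile site genes and 785 kb for neuronal genes, so length is matched only coarsely there. Among genes long enough, 21 of 35 genes of B cell identity and receptor signalling held a loop (60%, 42.1 to 76.1), against 24.2% expected. The kinases, adaptors and exchange factors of lymphocyte signalling had 35 of 52 (67.3%, 52.9 to 79.7), against 28.0%. Genes of muscle and the cytoskeleton had 18 of 30 (60%, 40.6 to 77.3), against 30.6%. Genes responsive to NF-kB or viral latency had 7 of 20 (35%, 15.4 to 59.2), against 16.6%. Chromatin and transcription regulators had 22 of 55 (40.0%, 27.0 to 54.1), against 26.7%. Cohesin subunits, their regulators and CTCF had 6 of 13 (46.2%, 19.2 to 74.9), against 17.9%. Genes of replication, checkpoint and repair had 6 of 54 (11.1%, 4.19 to 22.6), against 15.2%. Common fragile site genes, which are very long, had 11 of 32 (34.4%, 18.6 to 53.2), against 40.2%. Neuronal adhesion, channel and synapse genes had 12 of 45 (26.7%, 14.6 to 41.9), against 37.9%. T cell genes had 3 of 16 (18.8%), against 18.5%, and myeloid and erythroid genes 2 of 5.

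The calls of list genes in the drug comparisons are given beside 3.68% higher and 1.61% lower over all 435 genes in APH over DMSO and 5.75% and 2.99% in HU over H2O. Of the B cell genes, 0 of 5 tested were called in APH over DMSO and 0 of 6 in HU over H2O. The most contacts were in PIK3AP1, an adaptor of PI3-kinase in B cells, with 177 in APH against 154 in DMSO and 167 in HU against 179 in H2O. IKZF3, a transcription factor of the Ikaros family, had 84 in APH against 79 in DMSO and 74 in HU against 77 in H2O. Of the lymphocyte signalling genes, 1 of 15 was called higher and 1 lower in APH over DMSO. The higher one was PTPN1, a tyrosine phosphatase, with 100 in APH against 52 in DMSO, and the lower one was GAB2. Against H2O the ratio of PTPN1 was 0.46 (-0.01 to 0.93), which is not a call. In HU over H2O 2 of 14 were called lower, RAPGEF1 and STIM1, the calcium sensor of the endoplasmic reticulum, with 51 in HU against 78 in H2O. Of the NF-kB and latency genes, 1 of 4 was called lower in HU over H2O, which was CFLAR. BCL2, an inhibitor of apoptosis, had 147 over 6 loops in APH against 160 in DMSO (-0.45, -0.78 to -0.12) and 130 in HU against 167 in H2O, below the 1.5-fold needed for a call.

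Of the common fragile site genes, which are known to break when replication is slowed, 1 of 6 tested was called higher in APH over DMSO and 0 of 6 in HU over H2O. PDE4D, a phosphodiesterase, had 156 contacts in APH against 99 in DMSO (0.33, -0.04 to 0.71), and was not called. Among cohesin genes, the loader subunit NIPBL had 60 in APH against 43 in DMSO and 49 in HU against 44 in H2O, and the regulator PDS5B had 38 in APH against 40 in DMSO and 42 in HU against 44 in H2O. None of the 2 tested was called. The 1 tested gene of replication and repair was not called in either drug comparison. Of the muscle and cytoskeleton genes, CASQ2 was called higher and SPTBN1 lower of 10 tested in APH over DMSO, and CASQ2 higher of 9 in HU over H2O. No gene was called in either drug comparison among the 5 tested neuronal genes, the 2 chromatin and transcription regulators, the 1 T cell gene and the 1 myeloid and erythroid gene.

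For some genes the number of listed loops differed between libraries. The following genes were chosen after their values were seen, from those with the largest differences. SMG6 had 2 listed loops in HU against 14 in H2O, with 6 in APH and 4 in DMSO. JARID2, a cofactor of Polycomb complex 2, had 1 in HU against 9 in H2O, with 3 in APH and 2 in DMSO. NAV2 had 12 in HU against 3 in H2O, with 6 in both APH and DMSO. In the other comparison, OSBPL3 had 9 loops in APH against 0 in DMSO, with 8 in HU and 6 in H2O. PTPRJ, a receptor tyrosine phosphatase, had 10 in APH against 1 in DMSO, with 7 in HU and 4 in H2O. MB21D2 had 0 in APH against 7 in DMSO, with 6 in HU and 5 in H2O. For SMG6 and JARID2 the H2O library stood above the other 3, and for OSBPL3 the DMSO library stood below them. Listing depends on a minimum of 12 contacts and on the caller, so a library with 0 listed loops may still hold contacts below it.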

How the data were processed

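Per the labels, SMC1 HiChIP libraries of GM12878 were made after 18 h with 0.4 µM aphidicolin (APH), its solvent DMSO, 0.2 mM hydroxyurea (HU) or its solvent H2O, 1 library each. GM12878 is the line given in the source and cell line labels and in library names, although a different lymphoblastoid line stands in the titles. Per the submitters' processing notes, bcl2fastq 2.17 and MACS3 3.0.1 were used with hg38. For the aligner and the loop caller, the tool is not given in the sources used here.

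Each library came as 1 deposited loop list without a header, so columns were read from their values: raw contact counts per 5 kb bin pair, at minimum 12, expected counts of the caller's background, and a p-value column that was not used. Total depth is unknown, and an unlisted pair is not a 0.

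The tools were scipy 1.17.1, pandas 2.3.3 and numpy 2.4.6 under Python 3.11.15, with matplotlib 3.10.9 for the plots. Counts were divided by each library's total over the loops that all 4 lists hold, with no pseudocount. Count ratios have 95% exact conditional intervals and shares have Clopper-Pearson intervals, for counting error only; reads carried no molecular identifiers, so molecules may be counted more than once. With 1 library per group, p-values were not computed. The calculations were tested on simulated data. Genes and promoter sequences came from RefSeq tables of GRCh38.p14. Anchors inside 1 gene may overlap the gene body in part. Alternatives were other scalings, loops listed in both libraries, at least 24 counts, anchors wholly inside the gene, division by expected counts, loops with 1 common gene, the other solvent, and a mean over span classes.

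Members, gene lists and tests were chosen with earlier results of these data known. Named are the 10 genes with most loops, the 10 with most counts, the 6 highest and 6 lowest called genes per drug, the 3 loops with most counts, the 2 highest and 2 lowest called loops per drug, and in each gene list up to 3 with most counts and any called, of which some are described. Genes outside this rule are said to be chosen after their values were seen. Some genes that this rule names are not reported here.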

Additional observations from a re-analysis of the deposited data

Results flagged for a closer look

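For 48 named or listed genes the log2 ratio of APH over DMSO was set against that of HU over H2O, and for 8 of them the interval of the difference (95% Wald, counting error only) left out 0. Over all 408 genes tested in both comparisons it did so for 21 (5.15%). That is near the share that 95% intervals leave out by counting error alone. The genes flagged here, apart from AFF1, were among the 48 because 1 drug comparison called them, so a difference from the other comparison was favoured by the choice. The difference was -1.36 for ZFHX3, -1.09 for LRP5 and -0.99 for NHS, which were lower in APH over DMSO than in HU over H2O. It was 0.72 for AFF1, 0.77 for PTPN1, 0.88 for MRTFA, 1.05 for RAPGEF1 and 1.23 for CFLAR, which were higher in APH over DMSO. AFF1, a subunit of the super elongation complex, had 119 contacts in APH against 69 in DMSO and 88 in HU against 107 in H2O. The solvent libraries enter each difference: H2O over DMSO stood at -0.80 for ZFHX3, -0.60 for LRP5, 0.50 for MRTFA, 0.52 for AFF1 and 0.65 for CFLAR, and at -0.12 for NHS, 0.05 for RAPGEF1 and 0.16 for PTPN1. The part of the solvent libraries in these differences was not tested. No interval was adjusted for the 48 comparisons.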

How the results depend on the processing

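No paired analysis was possible because each group has 1 library, and the groups share only the number 1. Of the results that answer a comparison, 62 values under the alternatives lay within the main interval or, for counts of genes, within 1.5 times the main count, 22 moved beyond that and 1 turned the sign of a value whose main interval left out 0. Some of the 62 were fixed in advance: library totals cancel in the difference from other loops, so the other scalings could not change it. The sign also differed for 18 values whose main interval included 0. Scaled by all listed contacts, the pooled log2 ratio was -0.36 for APH over DMSO, 0.046 for HU over H2O and -0.22 for H2O over DMSO, and the called genes numbered 78 for APH over DMSO and 19 for H2O over DMSO. With counts divided by expected counts, the pooled ratio was 0.0498 for APH over DMSO and 0.0839 for HU over H2O. The difference from other loops of that span was then 0.0388 for APH over DMSO, 0.0941 for HU over H2O and -0.0080 for H2O over DMSO, and 11 and 14 genes were called for APH over DMSO and H2O over DMSO. Averaged over span classes, the difference was -0.0348 for HU over H2O. With at least 24 counts, 15 genes were called for APH over DMSO, the pooled ratio of H2O over DMSO was -0.0057, and the difference in the share of loops inside genes was -0.84 percentage points for HU minus H2O. With both anchors wholly inside the gene, 15 genes were called for APH over DMSO, 23 for HU over H2O and 4 for H2O over DMSO, where fewer loops entered. With the other solvent, the difference in share was -0.0079 points for APH (reversed) and 1.69 for HU. With 1 bin of tolerance, 41.8% of loops were found in all 4 libraries and 51.9% lay at a start. Apart from the smaller sets, the cause of these shifts was not tested. Among called genes, only the highest and lowest named for each drug were counted under the alternatives. Of their values, 136 stayed called, 34 kept their direction without a call and none changed sign. A gene that dropped out under a setting was not counted. This left 10 values with at least 24 counts and 16 with both anchors wholly inside the gene, all still called. Loops with 1 common gene gave 24 values, as did scaling by shared loops of 35 to under 250 kb, and all stayed called. Most of these were fixed in advance and do not show stability. With 1 common gene all 24 equalled the main values, since the same loops entered. Of the 10 and the 16, only those of MRTFA differed from the main value. Scaling by shared loops of that span moved all genes of a comparison by the same small amount. Low counts per loop limit single loops and most single genes, and 1 library per group limits every comparison.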
